A study of Fukomys damarensis and Heterocephalus glaber and Cavia porcellus with 28 samples.

Results

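The genes described here encode the cardiac myosin heavy and light chains and the cardiac form of myosin binding protein C: Myh6, Myh7, Myh7b, Myl2, Myl3, Myl4, Myl7 and Mybpc3. They were chosen by symbol, through the mouse Ensembl identifier of each row. A row was found for 7 of the 8 among 13928 rows in each of the heart and liver tables. Myl7, the atrial regulatory light chain, was not analysed here. Rows carried the identifiers ENSMUSG00000040752 (Myh6), ENSMUSG00000053093 (Myh7), ENSMUSG00000074652 (Myh7b), ENSMUSG00000013936 (Myl2), ENSMUSG00000059741 (Myl3), ENSMUSG00000061086 (Myl4) and ENSMUSG00000002100 (Mybpc3).

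Heart muscle contracts when myosin heads of the thick filament pull on actin. Each myosin molecule holds a pair of heavy chains, and each heavy chain carries an essential and a regulatory light chain. Alpha myosin heavy chain (Myh6) splits ATP faster than beta myosin heavy chain (Myh7), and the proportion of these chains differs between species, between atrium and ventricle, and with thyroid state. Myl3 and Myl2 are the essential and regulatory light chains of the ventricle, while Myl4 is the essential light chain of the atrium and of the embryonic heart. Myh7b is an ancient relative of Myh6 and Myh7 whose gene carries miR-499 in an intron, and Mybpc3 binds myosin and tunes its access to actin.

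Ribosomal-RNA-depleted total RNA was sequenced from heart and liver of 4 rodent species, giving 28 libraries. Hearts came from 3 naked mole-rats aged 13 to 17 months, 5 Damaraland mole-rats aged 36 or 48 months, 3 guinea pigs aged 2.3 months and 3 mice aged 2 months, and the labels give each of these animals as male. Livers came from 4 naked mole-rats, 5 Damaraland mole-rats of which 1 was female, 3 guinea pigs and 2 mice, with the same ages in each species as for heart. By the labels, 10 animals gave both tissues (3 guinea pigs, 4 Damaraland mole-rats, 2 naked mole-rats and 1 mouse), mostly under different replicate numbers, and 1 of these, a Damaraland mole-rat, is labelled 48 months in heart and 36 months in liver. The labels name no genotype, strain or treatment and no heart chamber. Species, age and the gene models of each species cannot be told apart in this design, and values carry no correction for gene length. In such tissue samples, fewer cells of a type and less RNA per cell cannot be told apart.

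Depth, as reads recovered from the deposited values, ran from 4089633 to 26985779 reads in heart and from 11220505 to 21467939 in liver. Levels given as RPM are reads scaled to the library's total. Naked mole-rat heart replicate 3 was the library with the lowest depth. The 9 cardiomyocyte markers, which include Actc1, Tnnt2 and Ryr2, each had reads in every species. Their sum did not overlap between species, at 34100 to 38710 RPM in naked mole-rat hearts, 43410 to 51510 in guinea pig, 62520 to 70330 in Damaraland and 89170 to 97450 in mouse hearts. Ttn, also among the 9, had mean deposited values of 14.49, 16.43, 16.97 and 20.07 in that order. Its mouse mean was above that of Myh6 (19.11, mean 30300 RPM), so Ttn was a large part of the mouse sum. Tnni3 was also highest in mouse by mean, but Mb was highest in Damaraland and Ryr2 in naked mole-rat hearts. The sum without Ttn was not computed. Fibroblast markers (6 of 7 genes with a row) summed to 668.9 to 1564 RPM in naked mole-rat, 822.9 to 3260 in Damaraland, 3356 to 9533 in guinea pig and 407.0 to 573.5 in mouse hearts. The part of these differences in the values below was not tested. Hepatocyte markers (5 of 6 genes with a row) summed to 723.9 to 1865 RPM in naked mole-rat hearts, 250.8 to 499.9 in Damaraland, 289.0 to 434.9 in guinea pig and 17.05 to 60.21 in mouse hearts. The markers did not all follow this sum. Alb, Fgb and Ttr had their highest mean in naked mole-rat hearts, Alb at 14.14 against 8.84 to 11.33. Apoa1 was lower there (8.78) than in Damaraland (10.82) and guinea pig hearts (11.7).

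In heart, 6 of the 7 genes differed between at least 1 pair of species, against 72% of all 10667 genes tested. A gene was called when limma's adjusted p was under 0.05 and the difference was at least 1 on the deposited log2-like scale, where 1 unit is close to a doubling for abundant genes. Myh6 and Myh7 were each called in 4 of the 6 pairwise species contrasts and Myh7b in 5, while 17.5% of all genes were called in at least 4. Myl2 was called in 2, Myl4 and Mybpc3 in 1 and Myl3 in 0. The heavy chains therefore set the species apart more often than the ventricular light chains did, by this count and without a test of that difference.

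**Figure D1:**
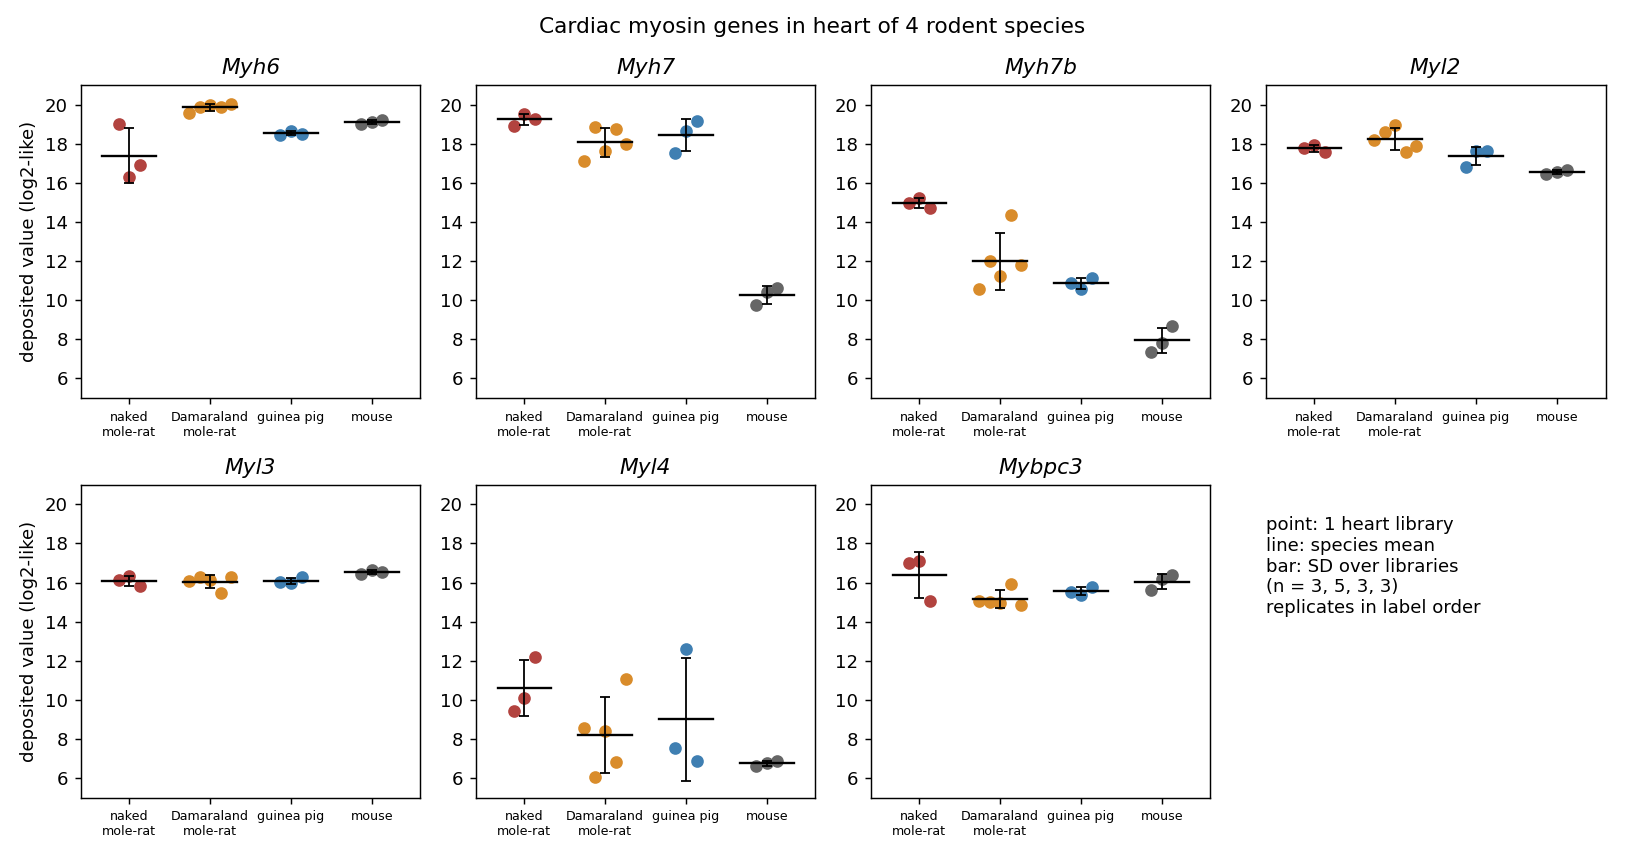
Deposited log2-like values of the 7 genes (vertical axis, same scale in each panel) by species (horizontal axis). Each point is 1 heart library, the line is the species mean and the bar is the SD. Myh7 in the 3 mouse hearts sits at 9.73 to 10.63, below the other 11 libraries, while Myl3 covers a narrow range in all species and Myl4 scatters within species.

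Myh7, the beta heavy chain, was high in every heart except those of mice. Its values were 18.91, 19.52 and 19.27 in naked mole-rat hearts, 17.12, 18.87, 17.62, 18.73 and 18.00 in Damaraland hearts, and 17.52, 18.63 and 19.15 in guinea pig hearts. In mouse hearts they were 9.73, 10.40 and 10.63. Every mouse library thus lay far below every other library, and the naked mole-rat libraries lay above the Damaraland libraries without overlap but overlapped the guinea pig libraries. Against mouse, Myh7 was higher by 8.98 in naked mole-rat (SE 0.45; limma adjusted p 4.46e-11), 7.81 in Damaraland mole-rat (SE 0.40; limma adjusted p 5.9e-11) and 8.18 in guinea pig (SE 0.45; limma adjusted p 1.77e-10). These contrasts share the 3 mouse libraries.

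Among the other 3 species, Myh7 differed less. It was 1.17 higher in naked than in Damaraland mole-rat (SE 0.40; limma adjusted p 0.0183). This call was lost without Damaraland replicate 1 (difference 0.93, limma adjusted p 0.0460) or naked mole-rat replicate 2 (1.02, limma adjusted p 0.0723), and under quantile normalisation the difference was -0.05. Quantile normalisation gives every library the same set of values, so a difference there reflects only the rank of a gene within its libraries. By reads, Myh7 ranked 2 to 4 among genes in naked mole-rat hearts and 2 to 5 in Damaraland hearts, which leaves little room for a difference. Naked mole-rat against guinea pig gave 0.80 (SE 0.45; limma adjusted p 0.133), which passed without guinea pig replicate 3 (1.16, limma adjusted p 0.0496) and was -0.24 under quantile normalisation. Damaraland mole-rat against guinea pig gave -0.37 (SE 0.40; limma adjusted p 0.439).

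Myh6, the alpha heavy chain, was highest in Damaraland hearts and lowest in naked mole-rat hearts by mean. Values were 19.55, 19.85, 19.98, 19.89 and 20.04 in Damaraland hearts, 19.01, 19.11 and 19.20 in mouse hearts, and 18.47, 18.67 and 18.52 in guinea pig hearts. Naked mole-rat hearts gave 18.98, 16.27 and 16.90. The Damaraland libraries lay above all others, and the naked mole-rat libraries split, with replicate 1 between the guinea pig and the mouse libraries and the other two below all of them.

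Naked mole-rats were lower than Damaraland mole-rats in Myh6 by -2.48 (SE 0.41; limma adjusted p 6.54e-05). Leaving out single libraries moved this difference between -3.28 and -1.92, and the call was kept each time. Against mouse the naked mole-rat difference was -1.72 (SE 0.46; limma adjusted p 0.00354), a call lost under quantile normalisation (-1.18, limma adjusted p 0.0720). The difference from guinea pig, -1.17 (SE 0.46; limma adjusted p 0.0373), was lost when any guinea pig library or naked mole-rat replicate 2 or 3 was left out. Its limma adjusted p was then 0.0630, 0.0901 and 0.0715 without guinea pig replicates 1, 2 and 3, and 0.238 and 0.131 without naked mole-rat replicates 2 and 3, where the difference fell to -0.61 and -0.92. Without a filter on low values the limma adjusted p was 0.0804. Damaraland mole-rats were 1.31 above guinea pigs (SE 0.41; limma adjusted p 0.0109), again not called under quantile normalisation (0.78, limma adjusted p 0.181). The Damaraland and guinea pig differences from mouse, 0.75 and -0.56, did not pass, with limma adjusted p-values of 0.117 and 0.310. Under quantile normalisation these were 1.54 (limma adjusted p 0.0118) and 0.76 (limma adjusted p 0.251). By reads, Myh6 ranked 1 to 3 among genes in guinea pig hearts and 3 to 4 in mouse hearts, and only these ranks enter that setting.

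The proportion of beta chain was followed in each library as Myh7 reads in percent of Myh6 plus Myh7 reads, a measure that does not depend on the scaling between libraries. It is a share of reads and not of transcripts, and how reads that match both genes were assigned is not given in the sources used here. Naked mole-rat hearts had 48.8%, 90.5% and 83.8%, and Damaraland hearts had 15.6%, 33.7%, 16.3%, 30.8% and 19.6%. Guinea pig hearts had 34.2%, 49.3% and 60.9%, and mouse hearts 0.146%, 0.224% and 0.249%. From naked mole-rat through guinea pig and Damaraland mole-rat to mouse, neighbouring groups did not overlap except naked mole-rat and guinea pig.

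The Myh7 share averaged 74.4% ± 22.4 (SD, n = 3) in hearts of naked mole-rats and 23.2% ± 8.49 (SD, n = 5) in those of Damaraland mole-rats. Guinea pigs averaged 48.1% ± 13.4 (SD, n = 3), and mice 0.206% ± 0.0538 (SD, n = 3). Over the 4 species the share differed, with a two-sided exact permutation p of 0.000162 over 3363360 arrangements of the libraries (0.000487 adjusted over the 3 shares tested). The 2 mole-rats differed by 51.2 percentage points (exact permutation p = 0.0179, the smallest that 3 against 5 libraries allow; 0.0804 adjusted over 18 pairs). Damaraland mole-rat against guinea pig gave -24.9 points and against mouse 23.0 points, each with the same exact permutation p. Naked mole-rat against guinea pig gave 26.2 points (exact permutation p = 0.300). Pairs of 3 against 3 libraries cannot go below 0.10, the value for naked mole-rat or guinea pig against mouse, and 0 of 18 pairs passed after adjustment. The 95% Wilson interval of the heart library with the fewest reads, naked mole-rat replicate 3, ran from 83.65% to 83.97% and covers counting error only.

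**Figure D2:**
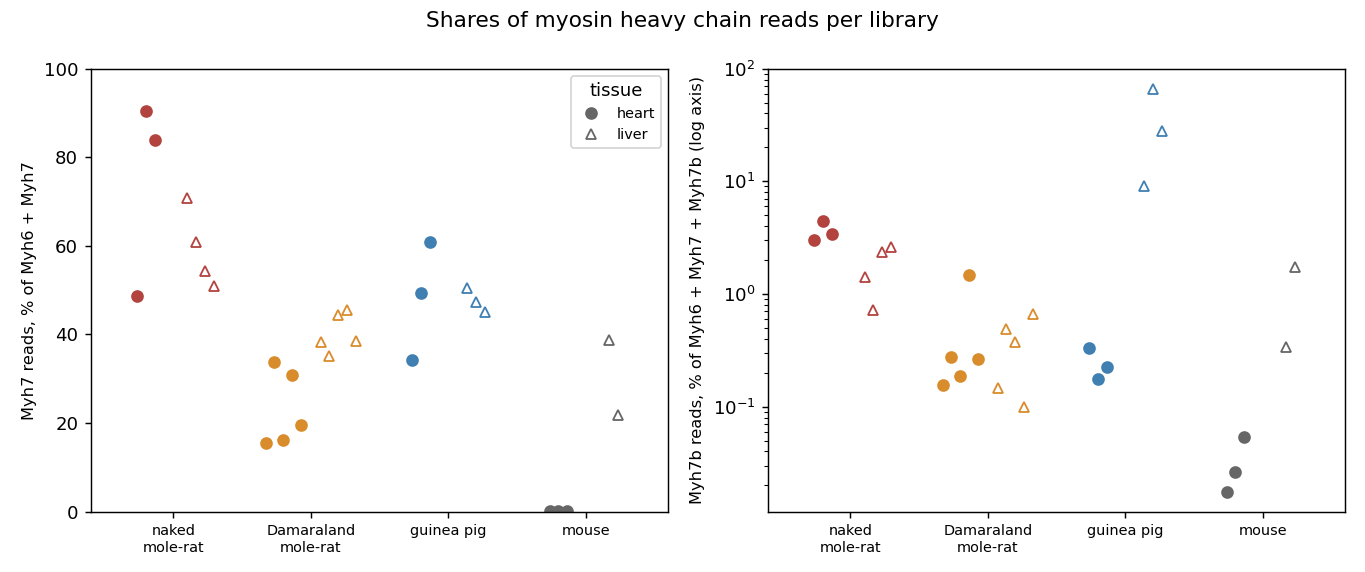
Left, Myh7 reads in percent of Myh6 plus Myh7 reads. Right, Myh7b reads in percent of Myh6, Myh7 and Myh7b reads, on a log axis. Each symbol is 1 library by species, filled circles for heart and open triangles for liver. In heart the Myh7 share falls from naked mole-rat (48.8% to 90.5%) to mouse (0.146% to 0.249%), while mouse liver sits at 21.8% and 38.8%, and the Myh7b share is highest in guinea pig liver.

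Myh7b was highest in naked mole-rat hearts. Values were 14.96, 15.24 and 14.69 there, 10.55, 11.98, 11.22, 14.37 and 11.82 in Damaraland hearts, 10.90, 10.56 and 11.13 in guinea pig hearts, and 7.37, 7.81 and 8.66 in mouse hearts. The naked mole-rat libraries lay above all others and the mouse libraries below all others. Damaraland replicate 4 stood close to the naked mole-rat libraries, and the other 4 Damaraland libraries ran from the guinea pig level to slightly above it.

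Naked mole-rats exceeded Damaraland mole-rats in Myh7b by 2.98 (SE 0.57; limma adjusted p 0.00025), guinea pigs by 4.10 (SE 0.64; limma adjusted p 3.38e-05) and mice by 7.02 (SE 0.64; limma adjusted p 6.36e-08). Without Damaraland replicate 4 the mole-rats differed by 3.57 (limma adjusted p 2.32e-07). Damaraland mole-rats and guinea pigs were above mice by 4.04 and 2.92, with limma adjusted p-values of 9.36e-06 and 0.000836. Damaraland mole-rat against guinea pig gave 1.12 (SE 0.57; limma adjusted p 0.0965), which passed only without Damaraland replicate 1 (1.48, limma adjusted p 0.0240) among the libraries left out in turn.

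As a share of the 3 heavy chain read counts, Myh7b made up 3.62% ± 0.723 (SD, n = 3) in naked mole-rat hearts and 0.244% ± 0.0808 (SD, n = 3) in guinea pig hearts. In mouse hearts it was 0.0326% ± 0.0190 (SD, n = 3). In Damaraland hearts the share was 0.156%, 0.277%, 0.186%, 1.48% and 0.264% (mean 0.472% ± 0.566, SD, n = 5), and 0.220% without replicate 4. The species differed in this share with an exact permutation p of 0.00321 (0.00481 adjusted over 3 shares). Mybpc3 was also at its highest Damaraland value in replicate 4, and Myl3 at its lowest.

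The ventricular regulatory light chain Myl2 was lowest in mouse hearts. Values were 16.46, 16.55 and 16.64 in mouse, 16.82, 17.61 and 17.62 in guinea pig, 17.77, 17.92 and 17.59 in naked mole-rat, and 18.21, 18.59, 18.95, 17.58 and 17.86 in Damaraland hearts. Each of the other libraries lay above the mouse libraries, while the mole-rats overlapped each other.

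Myl2 was 1.69 higher in Damaraland mole-rat than in mouse (SE 0.29; limma adjusted p 7.07e-05) and 1.21 higher in naked mole-rat than in mouse (SE 0.32; limma adjusted p 0.00348). Guinea pig against mouse (0.80, limma adjusted p 0.0412) and Damaraland mole-rat against guinea pig (0.89, limma adjusted p 0.0134) stayed under the size threshold of 1. The former passed without guinea pig replicate 1 (1.06, limma adjusted p 0.0136) and under quantile normalisation (1.44, limma adjusted p 0.00422). The latter passed without guinea pig replicate 2 (1.02, limma adjusted p 0.0174), guinea pig replicate 3 (1.02, limma adjusted p 0.0167) or Damaraland replicate 4 (1.05, limma adjusted p 0.00323). Naked mole-rat differed from Damaraland mole-rat by -0.48 (SE 0.29; limma adjusted p 0.159), which became -1.19 under quantile normalisation (limma adjusted p 0.0063). Naked mole-rat against guinea pig gave 0.41 (SE 0.32; limma adjusted p 0.286), and -0.29 under quantile normalisation.

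The ventricular essential light chain Myl3 varied least between species means among the 7 genes. Naked and Damaraland mole-rats averaged 16.08 ± 0.26 (SD, n = 3) and 16.05 ± 0.33 (SD, n = 5). Guinea pigs averaged 16.09 ± 0.15 (SD, n = 3) and mice 16.56 ± 0.10 (SD, n = 3). Each mouse library lay above every library of the other species. The 3 contrasts against mouse were -0.48 (SE 0.23), -0.51 (SE 0.21) and -0.47 (SE 0.23) for naked mole-rat, Damaraland mole-rat and guinea pig, below the size threshold, and only the Damaraland contrast had a limma adjusted p under 0.05 (0.0404). Among the other species, the Myl3 differences were 0.03, -0.004 and -0.04, with standard errors of 0.21 to 0.23.

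Mybpc3 was split within the naked mole-rats. Its values were 17.02, 17.12 and 15.04 in naked mole-rat hearts and 15.05, 15.01, 14.95, 15.95 and 14.85 in Damaraland hearts. Guinea pig hearts had 15.51, 15.37 and 15.76, and mouse hearts 15.61, 16.16 and 16.37. Naked mole-rat replicates 1 and 2 were above all other libraries, while replicate 3, the library of lowest depth, fell among the Damaraland libraries.

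The Mybpc3 contrast of naked against Damaraland mole-rat was 1.23 (SE 0.39; limma adjusted p 0.0107). It was lost without naked mole-rat replicate 1 (0.92, limma adjusted p 0.0739) or replicate 2 (0.87, limma adjusted p 0.0844), and was 1.91 without replicate 3. Without replicate 3, naked mole-rats were also above guinea pigs by 1.53 (limma adjusted p 0.000529) and above mice by 1.03 (limma adjusted p 0.00853), against 0.85 and 0.35 with all libraries (limma adjusted p 0.0991 and 0.492). Damaraland mole-rat against mouse gave -0.89 (limma adjusted p 0.0527) and passed without Damaraland replicate 4 (-1.08, limma adjusted p 0.0204) or mouse replicate 1 (-1.10, limma adjusted p 0.0419). Naked mole-rat replicate 3 had 9080 Mybpc3 reads, or 2220 RPM, against 8245 and 9764 RPM in replicates 1 and 2. The part of depth in these values was not tested.

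**Figure D3:**
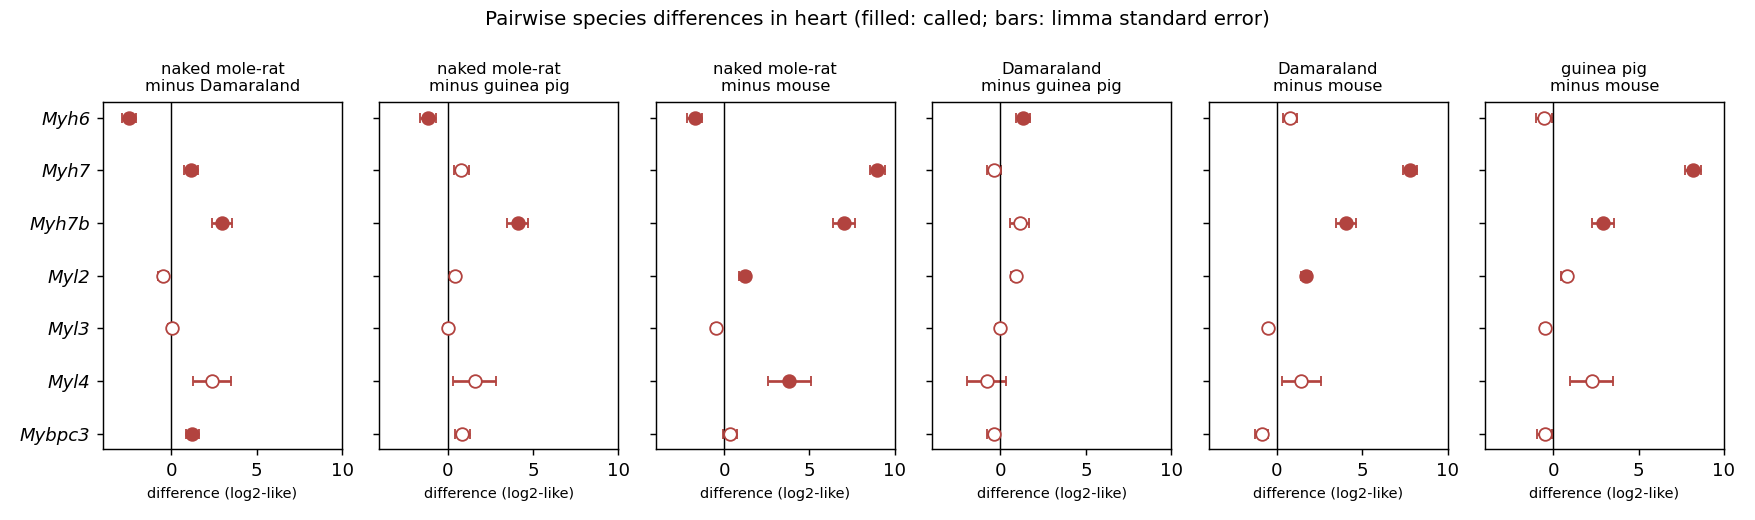
Pairwise species differences (horizontal axis, deposited log2-like scale) for the 7 genes (vertical axis), 1 panel for each pair. Bars are limma standard errors, and filled points passed the adjusted p and the size threshold. The 3 panels against mouse hold the largest differences, those of Myh7 at 7.81 to 8.98, and Myl4 has the widest bars.

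Counted by contrast, 4 of 7 genes were called between the mole-rats, against 29.4% of all genes. Of these, 3 were higher in naked mole-rat (background 14.2%) and 1 lower (15.2%). Naked mole-rat against guinea pig had 2 of 7 (background 33%), 1 higher (16%) and 1 lower (17%). Naked mole-rat against mouse had 5 of 7 (background 38.2%), 4 higher (18%) and 1 lower (20.2%). Damaraland mole-rat against guinea pig had 1 of 7 (background 29.7%), Damaraland mole-rat against mouse 3 of 7 (34.9%), and guinea pig against mouse 2 of 7 (32.1%), all of them higher in the species named first. The median difference of the 7 genes lay between -0.04 and 1.43 over these contrasts, beside -0.002 to 0.02 for all genes. When both mole-rats were averaged and set against guinea pig and mouse averaged, 3 of 7 were called (background 23.4%), namely Myh7 at 4.31, Myh7b at 4.07 and Myl2 at 1.05, all higher. The Myl2 average fell under the size threshold without guinea pig replicate 1 (0.91) or Damaraland replicate 3 (0.96). Against guinea pig alone, neither mole-rat was called for Myh7 or Myl2, and for Myh7b only the naked mole-rat was, without a test of that difference.

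Myl4, the atrial and embryonic essential light chain, varied mainly between libraries of the same species. Naked mole-rat hearts had 9.46, 10.12 and 12.19, and Damaraland hearts 8.59, 6.06, 8.44, 6.82 and 11.08. Guinea pig hearts had 7.54, 12.62 and 6.87, and mouse hearts 6.63, 6.79 and 6.88. One library in each species other than mouse was far above the rest of its species. These were naked mole-rat replicate 3 (304 RPM), Damaraland replicate 5 (156) and guinea pig replicate 2 (504), while the mouse hearts had 1.89 to 2.51 RPM.

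Of the 6 pairs, naked mole-rat against mouse was the one called for Myl4 (3.82, SE 1.26; limma adjusted p 0.0139), and this was lost without naked mole-rat replicate 3 (3.02, limma adjusted p 0.0672). The mouse heart mean of 2.26 RPM stood beside 0.847 RPM in mouse liver. Naked against Damaraland mole-rat gave 2.39 (limma adjusted p 0.0752) and passed without guinea pig replicate 2 (limma adjusted p 0.0205), which enters through the pooled spread, without Damaraland replicate 5 (3.11, limma adjusted p 0.0173), or with voom on the recovered reads (3.27, limma adjusted p 0.0471). Without guinea pig replicate 2, naked mole-rat exceeded guinea pig by 3.39 (limma adjusted p 0.0117, against 1.58 and 0.292 with it), and the mole-rat average exceeded the outgroups by 2.41 (limma adjusted p 0.00499, against 1.51 and 0.125). Damaraland mole-rat against guinea pig turned from -0.81 to 0.99 without that library. Guinea pig against mouse was 2.24 (limma adjusted p 0.135) and passed without guinea pig replicate 3 (3.32, limma adjusted p 0.0465). As a share of Myl3 plus Myl4 reads, Myl4 did not differ over species (exact permutation p = 0.340), with guinea pig values of 0.169%, 8.86% and 0.0624%. The guinea pig mean of 3.03% was 0.116% without replicate 2. The naked mole-rat mean of 3.19% was 1.06% without replicate 3, and the Damaraland mean of 0.695% was 0.234% without replicate 5.

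Atrial marker genes were set beside these Myl4 values, with 11 of 13 having a row. Without Myl4, they summed to 725.6 to 2797 RPM in naked mole-rat hearts, 900.9 to 2652 in Damaraland, 846.3 to 1953 in guinea pig and 165.6 to 317.0 in mouse, and none was at 0 reads in every library of a species. The highest sum of each species other than mouse fell in the library with the highest Myl4. Without Nppa as well, this held for naked mole-rat (675.9 RPM in replicate 3) but not for Damaraland mole-rat, where replicate 2 was highest (1554), or guinea pig, where replicate 3 was (1166). Much of this smaller sum was Dkk3, with 1216 RPM in that Damaraland library and 1053 in that guinea pig library, against 1.09 to 1.45 in mouse hearts. Bmp10, a growth factor of the atrium, had 98.8 RPM in naked mole-rat replicate 3 and 92.6 in Damaraland replicate 5, against at most 3.26 in every other heart library, guinea pig replicate 2 included. In guinea pig replicate 2, Nppa (834.5 RPM, atrial natriuretic peptide), Sln (124.6, sarcolipin) and Mybphl (47.6, a myosin binding protein of the atrium) were the highest of their species. Dkk3 (854.5), Gja5 (8.31), Nr2f1 (1.24) and Nr2f2 (37.3) were not, and Kcnj3 was the lowest (39.8 against 40.3 and 99.2). Damaraland replicates 2 and 4 had Nppa at 645.2 and 935.2 RPM with Myl4 at 0.682 and 3.64. The part of atrial tissue in the Myl4 values, or in those of Myh6, which the atrium also expresses, was not tested.

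**Figure D4:**
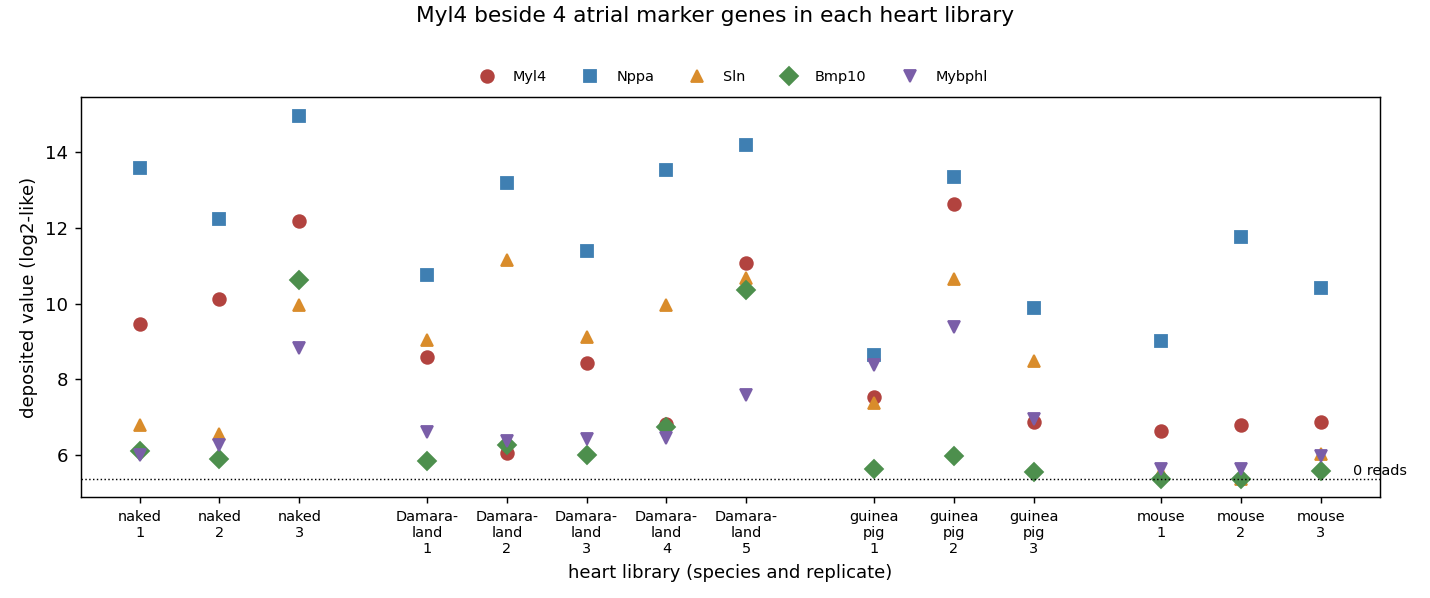
Deposited log2-like values (vertical axis) of Myl4 and the atrial marker genes Nppa, Sln, Bmp10 and Mybphl in each of the 14 heart libraries (horizontal axis). The dotted line is the value of 0 reads. Naked mole-rat replicate 3 and Damaraland replicate 5 are high in Myl4 and Bmp10 together, and guinea pig replicate 2 is high in Myl4 with Bmp10 near the line.

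Ventricular markers other than Myl2 and Myl3 (4 genes) summed to 830.9 to 951.8 RPM in naked mole-rat hearts, 101.6 to 181.0 in Damaraland, 236.0 to 315.8 in guinea pig and 631.7 to 694.5 in mouse. Hand1 was at 0 reads in every mouse heart and had 1 read in 1 of 5 Damaraland hearts. Lbh was most of the sum except in Damaraland hearts, with 821.3 to 929.4 RPM in naked mole-rats against 32.3 to 64.6 in Damaraland mole-rats. Irx4, a ventricular transcription factor and most of the Damaraland sum, went the other way, with 6.6 to 21.8 RPM in naked mole-rats and 64.5 to 114.0 in Damaraland mole-rats. Skeletal muscle markers (9 of 10 with a row) summed to 8532 to 12260 RPM in Damaraland hearts, 5180 to 5334 in guinea pig, 2291 to 2414 in mouse and 946.8 to 1254 in naked mole-rat. Most of this was Ckm, muscle creatine kinase, which heart also expresses, with 8502 to 12240 RPM in Damaraland and 902.5 to 1224 in naked mole-rat hearts. Of the others, Mylpf, a fast muscle light chain, had 8.3 to 21.5 RPM in Damaraland hearts and at most 0.471 elsewhere. Mybpc2 had 19.5 to 40.4 in mouse hearts and at most 0.702 elsewhere, and Myh4, a fast heavy chain, had 6.2 to 12.1 in naked mole-rat and at most 6.67 elsewhere. Tnnt3 was at 0 in every guinea pig heart.

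Other genes of the contractile apparatus also differed between species. Of 12 thin filament genes tested, 10 were called in at least 1 pair, of 7 titin, M-band and myosin binding genes 6, and of 7 genes for myosin phosphorylation 6, against 72% of all genes. In the average contrast the thin filament genes had 4 higher and 0 lower in mole-rats, the titin, M-band and binding genes 3 higher and 2 lower, and the phosphorylation genes 0 higher and 2 lower, against 10.8% higher and 12.6% lower over all genes. Tnnt1, slow skeletal troponin T, was called in 6 of 6 pairs, with means of 13.51 and 11.78 in the naked and Damaraland mole-rats, 9.69 in guinea pigs and 7.98 in mice. Tnni1, slow skeletal troponin I, was called in 5, with 12.19, 11.67, 9.61 and 5.75 in that order. Myom3, an M-band protein, was called in 5, with 13.29, 11.06, 13.05 and 6.50. Like Myh7, these 3 had their lowest mean in mouse. Ttn (titin), also called in 5, and Mybpc2, called in 3, had their highest mean in mouse, at 20.07 and 9.13, against 14.49 to 16.97 and 5.42 to 5.78 in the other species.

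Among genes that act on myosin, Mylk4, a myosin light chain kinase family member, had means of 7.84, 6.17 and 6.57 in naked mole-rat, Damaraland mole-rat and guinea pig against 12.19 in mouse, and was called in 5 of 6 pairs. Mylk3, the cardiac myosin light chain kinase, had 12.48, 13.24, 12.18 and 13.60. Ppp1r12b, a targeting subunit of myosin phosphatase, had 9.34, 12.13, 11.72 and 13.27 and was called in 5 pairs. Of 5 genes for myosin folding 3 were called in a pair, against 72% of all genes. Hsp90aa1, an HSP90 chaperone, had 5.60 in naked mole-rat against 11.49 to 13.49 in the other species. The naked mole-rat mean of Hsp90aa1 was close to the heart value of 0 reads. The part of the gene models of each species in this value was not tested. Smyd1, a methyltransferase that assists myosin assembly, was called in 2 pairs.

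All 7 skeletal and developmental myosin genes tested were called in at least 1 pair, against 72% of all genes. In the mole-rat average 4 were higher and 1 lower, against 10.8% higher and 12.6% lower over all genes. Myh8, the perinatal heavy chain, had 11.65 in naked mole-rat against 6.61 in Damaraland mole-rats, 6.16 in guinea pigs and 6.02 in mice. Myl1, an essential light chain of fast muscle, was highest in mouse at 9.09, against 5.58 to 6.86 elsewhere. All 6 smooth muscle and nonmuscle myosin genes tested were called in at least 1 pair, beside the same 72% of all genes. Smooth muscle Myh11 had means of 11.44 and 10.71 in the naked and Damaraland mole-rats, 9.62 in guinea pigs and 9.17 in mice, and Myl9 had 10.17, 12.38, 13.40 and 8.65 in that order.

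Of the regulators of myosin genes, 13 of 15 tested were called in a pair, against 72% of all genes. In the mole-rat average 1 was higher and 3 were lower, against 10.8% higher and 12.6% lower over all genes. Thrb, a thyroid hormone receptor, averaged 9.25 and 10.25 in the naked and Damaraland mole-rats, 7.81 in guinea pigs and 9.52 in mice. Tead1, which binds elements in muscle gene promoters, had 10.92, 10.01, 8.62 and 12.94, and Sox6, a repressor of slow muscle genes in skeletal muscle, had 9.47, 7.42, 6.90 and 9.51. Six4, a homeobox gene, had 6.68, 5.57, 6.12 and 8.16. None of these 4 followed the order of Myh6 or Myh7 over the 4 species means.

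The genes whose values ran most nearly parallel to each heavy chain over the 14 heart libraries were found by Pearson correlation, as a description in which the libraries of a species share its gene models. For Myh7 they were Synm (0.987), Eno2 (0.980) and Zfyve28 (0.979), and Synm, an intermediate filament protein, averaged 13.84 and 13.32 in the naked and Damaraland mole-rats, 12.99 in guinea pigs and 8.50 in mice. For Myh7b they were Adamts14 (0.979), Adar (0.960) and Tube1 (0.958). For Myh6 they were Gltp (0.901), Ank1 (0.892) and Cyth1 (0.888), and for Myl4 Podn (0.818), Nol12 (0.798) and Zfp202 (0.788).

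In liver, the 7 genes together made up 0.007% to 0.033% of reads, against 4.24% to 13.82% in heart. Liver levels of Myh6 were 26.5 to 45.4 RPM in naked mole-rat, 73.3 to 141 in Damaraland, 21.9 to 128 in guinea pig and 43.8 to 64.3 in mouse. These were 0.147% to 0.261% of the heart mean of the same species. The tissue tables were transformed separately, so tissues are compared here as shares of reads and without a test. Myl4 had 0 to 18 reads in any liver, and a count of 0 allows up to 0.140 to 0.194 RPM in the 3 livers where it occurred.

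Mouse liver departed from this ratio for Myh7. It had 40.7 and 12.2 RPM there, 42.2% of the mouse heart mean by average, and the mouse hearts had 43.0, 69.5 and 75.9. In the other species the liver mean of Myh7 was 0.140% to 0.305% of the heart mean. Myh7 made up 38.8% and 21.8% of Myh6 plus Myh7 reads in mouse livers, with 95% Wilson intervals of 36.0% to 41.6% and 19.4% to 24.5%, against at most 0.249% in mouse hearts. Livers of the other species had 35.2% to 70.9%. Mouse heart Myh7 was thus 2.37 times the mouse liver level, so the differences from mouse in Myh7 rest on a mouse heart level close to that of mouse liver. The part of background reads in the mouse values was not tested.

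Guinea pig liver stood apart for Myh7b. Its livers had 26.1, 82.0 and 38.5 RPM, against 0.141 to 2.46 in the livers of the other species, with no overlap. This was 35.2% of the guinea pig heart mean, while Myh6 and Myl2 in the same livers were at 0.230% and 0.115% of theirs. The guinea pig liver with the most Myh7b, replicate 2, had the least Myh6 (21.9), Myh7 (19.7) and Myl2 (1.79) of the 3, so Myh7b did not follow the other sarcomere genes between these livers.

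**Figure D5:**
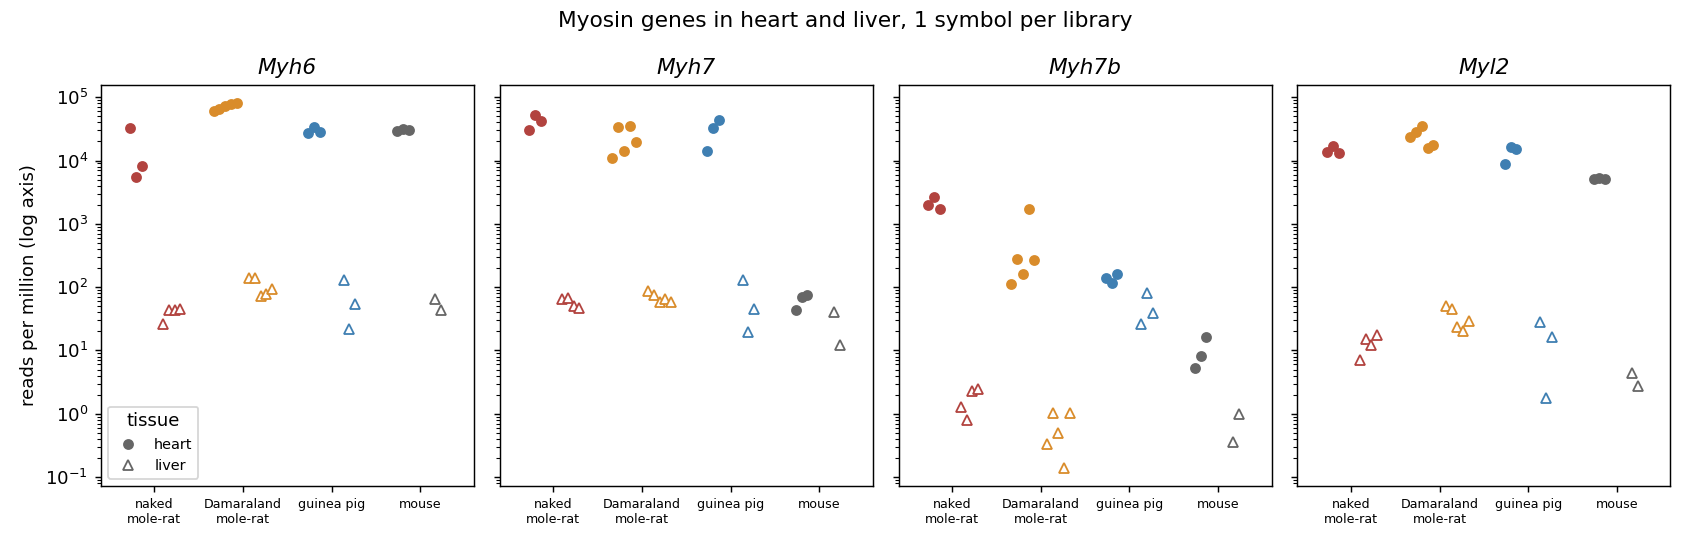
RPM (vertical axis, log scale) of Myh6, Myh7, Myh7b and Myl2 in heart (filled circles) and liver (open triangles), 1 symbol per library, by species. Liver lies far below heart except for Myh7 in mouse (43.0 to 75.9 in heart, 12.2 and 40.7 in liver) and Myh7b in guinea pig (116 to 164 in heart, 26.1 to 82.0 in liver).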

How the data were processed

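Heart and liver tables were deposited by the authors as DESeq2-type variance-stabilised numbers (log2-like). The submitters' processing notes name cutadapt, Salmon 013.1, DESeq2 and GRCm38. Index, gene assignment across species and the handling of reads shared by paralogs are not given in the sources used here. The tables hold 26 further columns of other series, not used. Identifiers of 13921 of 13928 rows matched a symbol. Inverting the transform (0 reads equal 5.3645 in heart, 4.2893 in liver) gave whole reads for 100% of values (tolerance 1e-06), used for depth, shares and RPM.

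Genes with a heart mean of at least the 0-read value + 1 (10667) entered limma 3.58.1 (R 4.3.3), with a coefficient per species over 14 libraries, a variance trend and Benjamini-Hochberg adjustment over all genes. The spread of each gene was pooled over the 4 species, so an SE does not follow the spread within a single species. For Myh6 the SD was 1.42 in naked mole-rat hearts against 0.10 to 0.19 in those of the other species. The fit was tested on simulated reads with the same spread setting in all species, which does not cover such unequal spread. Shares were tested by exact permutation over libraries, with 3 shares and 18 pairs, since the planned share with Myl7 was not analysed. Replicates within a group are separate animals per the labels. Alternatives were other filters, size thresholds, scalings, voom, a robust variance, a replicate block and each library left out.

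All members are named, and from each other list at most 4 genes, those called in the most pairs and then with the widest range of means. Nppa, Bmp10, Mybphl, Nr2f1 and Nr2f2 fall outside this rule and were chosen after their values were seen. Members and lists were chosen with earlier results of these data known.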

Additional observations from a re-analysis of the deposited data

Results flagged for a closer look

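In 24 sets of values, each a gene or share in a group of 4 or 5 libraries, 5 single values lay far outside the range of the others. Chance gives about 1 in 20 sets such a value if sets are independent and values normally distributed. These sets reuse the same libraries and include percent shares, so that rate is only a rough guide. Damaraland heart replicate 4 held 3 of them. Its Myl3 was 15.48 against 16.07 to 16.29 in the others, its Mybpc3 15.95 against 14.85 to 15.05, and its Myh7b share of heavy chain reads 1.48% against 0.156% to 0.277%. In Damaraland heart replicate 5, the Myl4 share of Myl3 plus Myl4 reads was 2.54% against 0.0122% to 0.445%. Myh6 in the first liver replicate of naked mole-rat was 8.80, with the others at 9.49 to 9.61.

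A pair of differences had opposite directions in heart and liver with no overlap of libraries in either tissue. Naked mole-rat minus guinea pig in Myh7b was 4.10 in heart and -3.41 in liver. Naked mole-rat minus mouse in Myl4 was 3.82 in heart and -0.73 in liver, where Myl4 had at most 18 reads per library. The difference between tissues was not tested, and each tissue was transformed separately.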

How the results depend on the processing

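Of 49 member contrasts under 8 other settings, 366 of 392 values kept direction and side of the threshold. With each of 14 libraries left out in turn, 643 of 686 did. These counts include values whose difference was fixed in advance. In a pairwise contrast, leaving out a library of another species cannot change the difference, only its limma adjusted p. The same holds for the filters, the size threshold and the robust variance. Counts of genes called for naked mole-rat minus guinea pig fell from 2 to 1 without a filter and with the replicate block; for Damaraland mole-rat minus guinea pig the count of 1 became 2 without a size threshold, 2 with the replicate block and 0 under quantile normalisation. Leaving out libraries gave 2 to 5 for naked minus Damaraland mole-rat, and 1 to 2 for each mole-rat minus guinea pig. Replicate numbers only name animals: same-numbered libraries had correlations of deviations from -0.261 to 0.301, 2 of 18 above 0.1, and the own number was highest in 12 of 36 checks. With the block, Myl2 in Damaraland mole-rat minus guinea pig was 1.23 and passed, and Myh6 in naked mole-rat minus guinea pig did not (limma adjusted p 0.0548).

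Signs turned for several differences. Of these, Myh7 in naked minus Damaraland mole-rat had been called (1.17, limma adjusted p 0.0183). Myh7 in naked mole-rat minus guinea pig (0.80) and Myl4 in Damaraland mole-rat minus guinea pig (-0.81) had not. Quantile normalisation gave -0.05 for Myh7 and -0.33 for Myl3 (naked minus Damaraland mole-rat), -0.24 for Myh7 and -0.29 for Myl2 (naked mole-rat minus guinea pig), 0.23 for Myl3 (Damaraland mole-rat minus guinea pig), 0.12 for Myl3 (Damaraland mole-rat minus mouse), 0.76 for Myh6 (guinea pig minus mouse), and 0.01 for Myl3 and 0.27 for Mybpc3 in the average contrast. Centring gave 0.021 for Myl3 (naked mole-rat minus guinea pig), 0.001 for Myl3 (Damaraland mole-rat minus guinea pig) and 0.027 for Mybpc3 (average); the block gave -0.077 and 0.072 for Myl3 (naked minus Damaraland mole-rat, Damaraland mole-rat minus guinea pig). Quantile normalisation keeps only the rank of a gene within its library, so it says little on differences between genes at the top ranks. The cause of the turned signs was not tested. Leaving out libraries gave -0.11 to 0.17, -0.12 to 0.13 and -0.10 to 0.105 for Myl3 among the 3 species other than mouse, -0.015 to 1.03 for Mybpc3 (naked mole-rat minus mouse), -1.88 to 0.99 for Myl4 (Damaraland mole-rat minus guinea pig), and -0.20 to 0.32 for Mybpc3 and -0.605 to 0.072 for Myh6 in the average contrast. With libraries left out, exact permutation p-values ran from 2.78e-06 to 0.000919 for the Myh7 share, 0.000135 to 0.00499 for the Myh7b share and 0.172 to 0.545 for the Myl4 share. Shares per protein length were not run, since no lengths were used here.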
